A study of Mus musculus with 30 samples.

Results

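The genes described here are 34 steroid, thyroid and orphan nuclear receptors of the mouse, out of 49315 genes in the deposited tables. They were chosen by name as members of the nuclear receptor family, with the retinoid receptors (RAR and RXR) and the PPARs left out. A few further receptors, such as Nr5a1 and Nr0b1, are not among them either. All 34 were found through their Ensembl identifiers, and 30 held enough counts to be tested. RNA was sequenced from 30 cultures of C57BL/6 fetal testis, taken on gestational day 14, freed of the mesonephros and kept on inserts for 24 h. The groups were MEHP at 100 µM (n = 6), ATRA at 1 µM (n = 5), MEHP + ATRA at the same doses (n = 4) and vehicle (n = 15). Every culture, treated or not, held DMSO at a final dilution of 1:4000. MEHP, mono-(2-ethylhexyl) phthalate, is the hydrolysis product of a plasticizer, and ATRA, all-trans retinoic acid, is the active form of vitamin A.

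Each culture was a whole organ piece of mixed cell types from 1 inbred strain, and the labels leave unsaid which libraries share an animal or a litter. The p-values therefore measure only the spread between these libraries. Sample titles carry 2 numbers of unstated meaning, and the second fell either between 416 and 465, here the lower range, or between 525 and 599, the upper range. MEHP libraries were found in the upper range alone, and ATRA and MEHP + ATRA libraries in the lower range alone. MEHP was therefore set against the 6 upper-range vehicle libraries, and the other treatments against the 9 lower-range vehicle libraries, in 1 model over all 30 libraries. MEHP libraries held between 17787871 and 20680365 counts in total, ATRA libraries between 18580209 and 26955598, MEHP + ATRA libraries between 21463109 and 24038103, and vehicle libraries between 17551454 and 29306917. Markers of the testis were present in all groups: Amh of Sertoli cells averaged 473 to 1190 CPM (the usual measure of counts relative to the scaled library size) and Ddx4 of germ cells 93.4 to 135 CPM. Alb of the liver averaged at most 0.243 CPM in any group, and Afp, the highest of the liver markers, at most 4.88 CPM.

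Nuclear receptors are transcription factors that bind short hexamer sequences in DNA, many of them switched by a small lipophilic ligand such as a steroid, thyroid hormone or a sterol. Ligand binding exchanges corepressors for coactivators, and several receptors work only as partners of the retinoid X receptors. Orphan receptors have no established natural hormone, and some of them respond mainly through changes in their own RNA. In the testis these receptors govern germ cell differentiation, Sertoli cell growth and the transcription of steroidogenic genes.

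In vehicle cultures the receptor genes differed widely in level. Levels between genes are compared here as RPKM, the scaled count per 1000 bases of exon, relative to library size. Thra, the thyroid hormone receptor alpha gene, was highest with a mean of 54.1 ± 6.1 RPKM (SD, n = 15). It was followed by the orphan receptor Nr2f6 with 39.0 ± 4.0 RPKM and by Nr1h2, the oxysterol receptor LXR beta, with 29.1 ± 2.6 RPKM. Across the vehicle libraries Thra overlapped Nr2f6, and Nr2f6 overlapped Nr1h2. All 15 values of Nr1h2 lay above all 15 of the next gene, the immediate early receptor Nr4a1 (13.8 ± 2.2 RPKM).

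Esrra, the estrogen-related receptor alpha of mitochondrial metabolism, had 11.5 ± 1.3 RPKM and the clock repressor Nr1d2 11.4 ± 1.7 RPKM, and these could not be ordered beyond their spread. Nr0b2 (7.93 ± 0.98 RPKM) and the glucocorticoid receptor Nr3c1 (5.56 ± 0.27 RPKM) came next, and all values of Nr3c1 lay above those of Nr2c2 (3.84 RPKM). From Nr2c2 down to Nr3c2 (0.520 RPKM), neighbours in the order overlapped, except that all values of Nr1d1 (3.06 RPKM) lay above those of Esr2 (1.65 RPKM). All values of Nr3c2 lay above those of the next gene, Nr1h4. The lowest genes, Nr1h4, Nr1i3, Esrrg, Hnf4a, Rorb, Nr4a3, Nr1i2, Nr2e1, Nr2e3 and Hnf4g, averaged 0.181 RPKM or less.

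The 4 genes below the count filter were the xenobiotic receptor Nr1i2, the neural stem cell receptor Nr2e1, the photoreceptor gene Nr2e3 and Hnf4g. Hnf4g had 11 counts over all 30 libraries together and none in 21 of them, and no treatment effect on these genes could be tested at this depth.

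**Figure D1:**
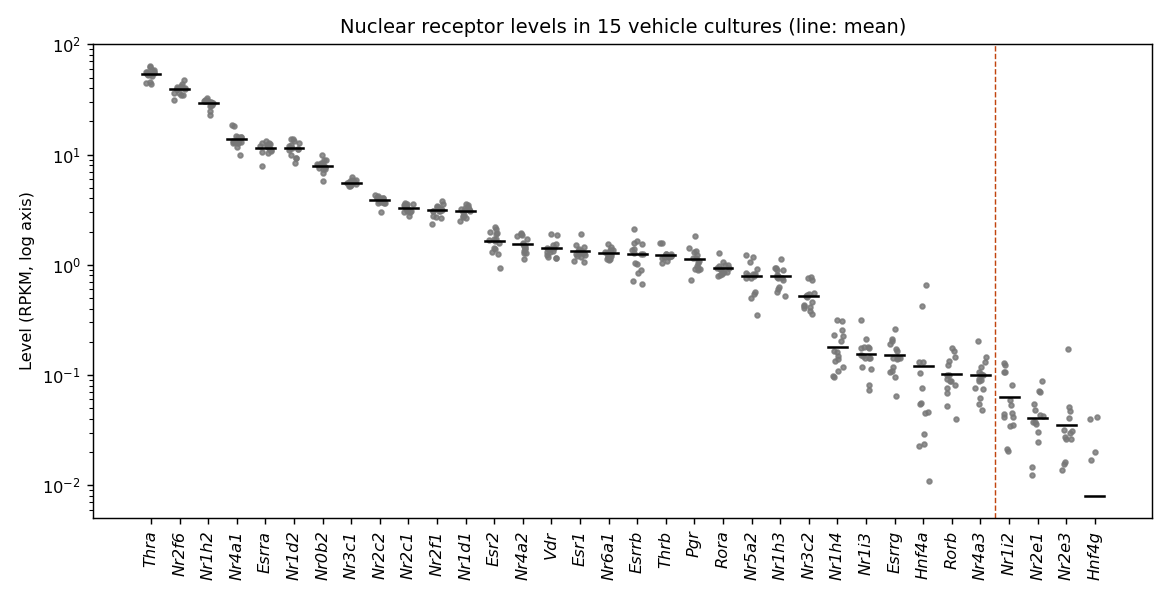
Levels of the 34 receptor genes in the 15 vehicle cultures (RPKM, log axis; each point is 1 library and each line the mean, and libraries at 0 are not drawn). The means run from 54.1 RPKM for Thra to 0.00791 RPKM for Hnf4g, and the 4 genes right of the dashed line were not tested.

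The treatments differed in how many receptor genes they moved. MEHP changed 2 of the 30 tested receptors (6.67%), Nr0b2 and Nr4a3, both higher, while 4.72% of all 19323 genes changed, 2.88% higher and 1.84% lower. ATRA changed 7 receptors (23.3%), 3 higher and 4 lower, while 18.1% of all genes changed, 9.06% higher and 9.03% lower. With MEHP + ATRA, 17 receptors (56.7%) changed, 10 higher and 7 lower, beside 29.0% of all genes, 14.3% higher and 14.7% lower. The shares for MEHP and ATRA were near those of all genes, and that for MEHP + ATRA lay above it. The share called also varied with level. Of the 22 receptors with a mean of 2 or more in log2 CPM, 1 passed in MEHP, 7 in ATRA and 14 in MEHP + ATRA, beside 5.98%, 21.2% and 33.4% of all genes at that level. The median log2 fold change of the receptors was 0.03 with MEHP alone, 0.09 with ATRA alone and 0.09 with MEHP + ATRA, beside −0.01, 0.00 and −0.01 over all genes. Their median size without regard to sign was 0.12, 0.24 and 0.33, beside 0.10, 0.13 and 0.18 over all genes. In bulk tissue, fewer cells of a type and less RNA per cell cannot be told apart, and this holds for every value below.

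**Figure D2:**
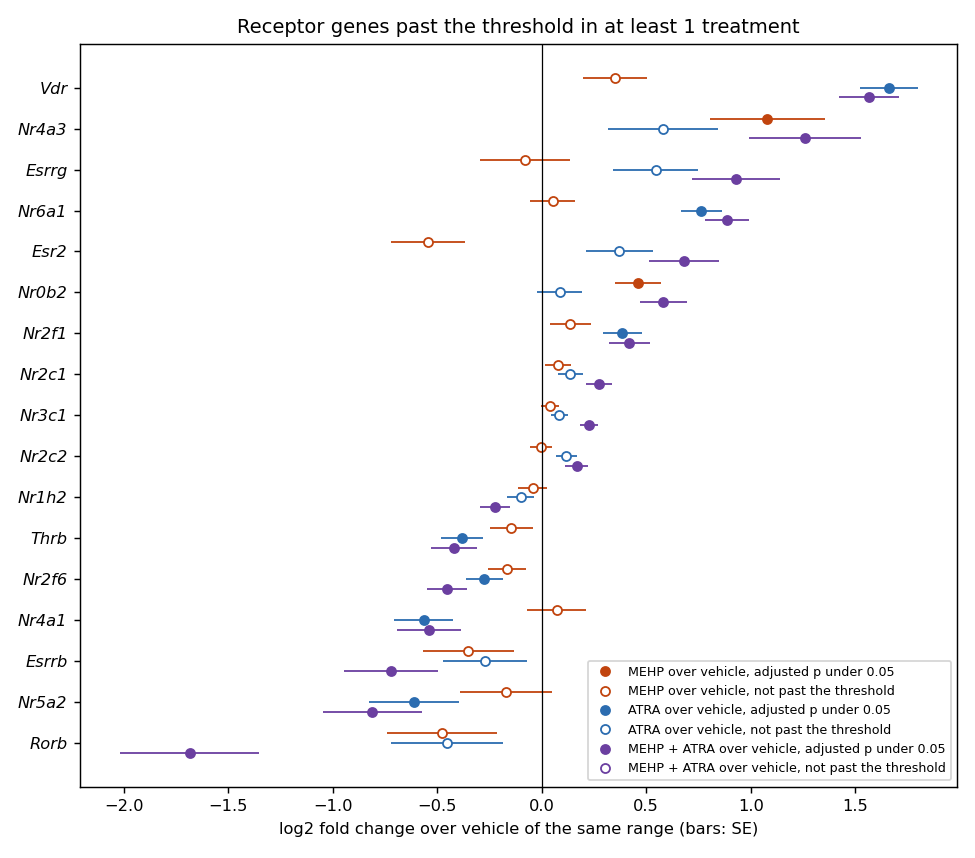
Log2 fold changes over vehicle of the same range for the 17 receptor genes that passed the test in at least 1 treatment (bars are standard errors; filled points have an adjusted p under 0.05). Vdr lies at 1.66 with ATRA and 1.57 with MEHP + ATRA, and Rorb at −1.69 with MEHP + ATRA; Esr2 lies left of 0 with MEHP and right of 0 with ATRA.

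Markers of cell types moved in the same libraries as the receptors. Of 6 interstitial progenitor markers, 4 fell with ATRA and 4 with MEHP + ATRA. Their summed level was 3310 to 3990 CPM with ATRA and 3210 to 3600 CPM with MEHP + ATRA, against 4860 to 5350 CPM in lower-range vehicle libraries, without overlap. With MEHP it was 4310 to 5010 CPM, against 4750 to 5700 CPM in upper-range vehicle libraries, and 1 of 6 markers fell. Col3a1 was the largest part of these sums, with a mean of 3000 CPM in lower-range vehicle. Tcf21 and Wnt5a passed in no treatment. Of 6 Sertoli cell markers, 5 rose and 1, Amh, fell with ATRA and with MEHP + ATRA, and 3 rose and Amh fell with MEHP. Their sum was 1310 to 1600 CPM with ATRA and 1210 to 1660 CPM with MEHP + ATRA, against 1070 to 1760 CPM in lower-range vehicle. With MEHP it was 1180 to 1830 CPM, against 1380 to 2260 CPM in upper-range vehicle libraries. By group mean Amh was the largest part of each sum, so the sums set its fall against the rise of other markers. It averaged 1020 CPM in lower-range vehicle, 671 CPM with ATRA and 473 CPM with MEHP + ATRA. Over the same groups Sox9 averaged 58.7, 103 and 143 CPM, and Aard 196, 445 and 422 CPM. Of 6 endothelial markers 4 rose with MEHP, where their sum was 177 to 321 CPM, against 166 to 277 CPM in upper-range vehicle libraries. With ATRA and with MEHP + ATRA 1 of 6 rose, Pecam1, by 0.49 ± 0.12 and 0.92 ± 0.12 in log2. The sums there were 168 to 251 CPM and 225 to 272 CPM, against 169 to 266 CPM in lower-range vehicle. These marker counts stand beside 4.72% (MEHP), 18.1% (ATRA) and 29.0% (MEHP + ATRA) of all genes called.

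Markers of the other cell types are to be read beside the same shares of all genes called, 4.72% (MEHP), 18.1% (ATRA) and 29.0% (MEHP + ATRA). Germ cell markers summed to 623 to 796 CPM with ATRA and 486 to 719 CPM with MEHP + ATRA, against 515 to 907 CPM in lower-range vehicle libraries, and 1 of 6 fell with MEHP + ATRA. Fetal Leydig cell markers summed to 1610 to 1930 CPM with ATRA and 1500 to 2300 CPM with MEHP + ATRA, against 1650 to 1980 CPM in lower-range vehicle, and 1 of 6 rose with each. Macrophage markers summed to 33.9 to 43.4 CPM with MEHP, against 23.5 to 41.7 CPM in upper-range vehicle, and 1 of 6 rose. Mesonephros markers summed to 39.7 to 56.6 CPM with ATRA and 44.3 to 50 CPM with MEHP + ATRA, against 38.1 to 58.8 CPM in lower-range vehicle, and 2 of 6 rose with each while 1 fell with MEHP + ATRA. Liver markers summed to at most 13.7 CPM in any library and 1 of 4 tested fell with MEHP + ATRA, and no defining marker of any list was at 0 in all libraries of a group. The part of these shifts in the changes of the receptor genes was not tested.

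Among the steroid hormone receptors, Esr2 and Nr3c1 rose with MEHP + ATRA, and Esr1, Pgr and Nr3c2 passed the test in no treatment. Esr2 encodes estrogen receptor beta (chromosome 12, 76120419 to 76177259). It had 7.82, 8.37, 9.15 and 10.8 CPM in the MEHP + ATRA libraries, against 4.39 to 7.17 CPM (median 5.59) in the lower-range vehicle libraries. All 4 MEHP + ATRA libraries lay above all 9 vehicle libraries, and the rise was 0.68 ± 0.17 in log2 (± SE, adjusted p = 0.00221, edgeR). ATRA libraries held 6.89, 6.94, 7.11, 7.38 and 8.12 CPM, and 2 of these 5 lay above all lower-range vehicle libraries (0.37 ± 0.16, adjusted p = 0.115). MEHP libraries held 2.31 to 4.86 CPM (median 3.68), against 3.13 to 7.35 CPM (median 5.73) in the upper-range vehicle libraries. This difference, −0.55 ± 0.18, did not pass the test (adjusted p = 0.073). It passed when any 1 of MEHP replicate 2, MEHP replicate 5 or vehicle replicate 6 was left out (−0.63 to −0.66, adjusted p = 0.041, 0.0415 and 0.0115), and in DESeq2 (adjusted p = 0.0314). Esr2 was also the 1 receptor with an unadjusted p under 0.05 for the interaction, which is the effect of MEHP in the presence of ATRA minus its effect alone. Its interaction was 0.85 ± 0.26 (p = 0.00244 unadjusted, adjusted p = 0.495, edgeR). The effect alone was measured wholly in the upper range and the effect with ATRA wholly in the lower range. A MEHP effect that differs between ranges therefore cannot be told apart from an interaction.

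Nr3c1, the glucocorticoid receptor gene, varied little. It had 45.5, 48.5, 49.4 and 49.7 CPM in MEHP + ATRA libraries, against 38.3 to 46.1 CPM (median 40.8) in lower-range vehicle libraries. Of the 4 treated libraries, 3 lay above all of vehicle, and the change was small, 0.23 ± 0.04 (adjusted p = 0.000115). Its level differed among vehicle libraries by a coefficient of variation of 4.89%, the lowest of the receptor genes. The difference from vehicle was 0.04 ± 0.04 with MEHP and 0.08 ± 0.04 with ATRA (adjusted p = 0.769 and 0.164).

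The other steroid receptors did not pass. Nr3c2, the mineralocorticoid receptor gene, had 3.75 to 5.74 CPM (median 4.71) with ATRA, 3.79 to 5.35 CPM (median 4.33) with MEHP + ATRA and 2.47 to 4.90 CPM (median 2.79) in lower-range vehicle. Its log2 differences of 0.55 ± 0.20 with ATRA and 0.49 ± 0.22 with MEHP + ATRA fell just short (adjusted p = 0.0536 and 0.0894). The ATRA difference passed without vehicle replicate 12 (0.65, adjusted p = 0.0159), without any 1 of ATRA replicate 3, MEHP replicates 1 and 4 and vehicle replicates 3 and 6 (adjusted p = 0.0166 to 0.0478), and in DESeq2 (adjusted p = 0.0392). The MEHP + ATRA difference passed without MEHP replicate 1 (adjusted p = 0.0362) or vehicle replicate 12 (0.60, adjusted p = 0.0286). Esr1, estrogen receptor alpha, differed by 0.17 to 0.20 over the treatments (adjusted p of 0.132 or more). With MEHP + ATRA, Esr1 passed in a fit of the lower-range libraries alone (0.21, adjusted p = 0.0301). Pgr, the progesterone receptor, differed by 0.32 ± 0.16 with MEHP alone, 0.27 ± 0.15 with ATRA alone and 0.14 ± 0.17 with MEHP + ATRA (adjusted p of 0.271 or more).

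Of the receptors for thyroid hormone and vitamin D, Vdr made the largest change with ATRA among the 30 tested genes. Vdr encodes the vitamin D receptor, a partner of the retinoid X receptors (ENSMUSG00000022479, chromosome 15, 97854425 to 97910630). ATRA libraries held 20.9, 21.0, 23.6, 25.5 and 30.2 CPM and MEHP + ATRA libraries 18.8, 20.5, 24.3 and 27.2 CPM. Vehicle of the lower range had 6.49 to 10.8 CPM (median 7.37), so no ATRA or MEHP + ATRA library overlapped them. The rise was 1.66 ± 0.14 with ATRA (adjusted p = 8.66e-11, edgeR) and 1.57 ± 0.14 with MEHP + ATRA (adjusted p = 4.62e-10). MEHP libraries held 6.57 to 15.5 CPM (median 10.3), against 7.37 to 10.4 CPM (median 8.21) in upper-range vehicle libraries. These groups overlapped at both ends, with 2 MEHP libraries above and 1 below all vehicle libraries (0.35 ± 0.15, adjusted p = 0.246).

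Of the 2 thyroid hormone receptor genes, Thrb passed the test and Thra did not. Thra had 209 to 292 CPM in treated libraries and 200 to 297 CPM in vehicle libraries, with differences of 0.03 ± 0.08 with MEHP alone, −0.01 ± 0.08 with ATRA alone and −0.09 ± 0.08 with MEHP + ATRA (adjusted p of 0.453 or more). Thrb, the beta receptor gene, fell with ATRA and with MEHP + ATRA. It had 4.88, 5.58, 5.64, 6.10 and 6.97 CPM in ATRA libraries and 4.38, 5.33, 5.57 and 7.47 CPM in MEHP + ATRA libraries. Vehicle of the lower range had 6.76 to 8.13 CPM (median 7.76), and 4 of 5 ATRA and 3 of 4 MEHP + ATRA libraries lay below all of them. Thrb fell by 0.38 ± 0.10 with ATRA (adjusted p = 0.00648) and by 0.42 ± 0.11 with MEHP + ATRA (adjusted p = 0.00373). Whether Thrb responded differently from Thra was not tested. Exons of Thra and Nr1d1 overlap by 263 bases on opposite strands, and the strand setting of the counting is not given in the sources used here.

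Nr6a1, the germ cell nuclear factor that represses pluripotency genes during differentiation, rose in the same libraries (ENSMUSG00000063972, chromosome 2, 38723370 to 38927688). ATRA libraries held 20.4, 21.9, 22.1, 26.6 and 26.7 CPM and MEHP + ATRA libraries 23.5, 25.2, 25.5 and 28.4 CPM. Vehicle of the lower range had 11.9 to 15.6 CPM (median 13.7), and again no treated library overlapped them. Nr6a1 rose by 0.76 ± 0.10 with ATRA (adjusted p = 5.26e-07) and by 0.89 ± 0.10 with MEHP + ATRA (adjusted p = 4.96e-08), and differed by 0.05 ± 0.11 with MEHP (adjusted p = 0.896). Neither the Vdr nor the Nr6a1 calls were lost in any of 8 other settings or on leaving out any of the 30 libraries.

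The promoter windows of these 2 genes are shown because in both, every ATRA and MEHP + ATRA library lay above the lower-range vehicle libraries. The windows run from 250 bases before to 50 bases after a RefSeq start (GRCm38.p6), 5′ to 3′ on the gene's strand, which is the minus strand for both. Their start sites lie 2334 bases (Vdr) and 1227 bases (Nr6a1) from the gene start in the deposited tables, so they stand for 1 of several possible starts. Capitals mark the hexamers AGGTCA and AGTTCA, to which retinoid receptors and their partners bind, and the cAMP response core TGACG, each on either strand.
Vdr, chr15:97908247-97908546: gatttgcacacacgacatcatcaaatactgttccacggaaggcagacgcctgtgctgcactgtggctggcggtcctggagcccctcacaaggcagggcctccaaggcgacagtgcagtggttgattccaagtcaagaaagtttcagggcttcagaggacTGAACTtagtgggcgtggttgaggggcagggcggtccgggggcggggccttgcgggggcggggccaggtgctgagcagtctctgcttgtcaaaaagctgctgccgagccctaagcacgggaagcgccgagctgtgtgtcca
Nr6a1, chr2:38926412-38926711: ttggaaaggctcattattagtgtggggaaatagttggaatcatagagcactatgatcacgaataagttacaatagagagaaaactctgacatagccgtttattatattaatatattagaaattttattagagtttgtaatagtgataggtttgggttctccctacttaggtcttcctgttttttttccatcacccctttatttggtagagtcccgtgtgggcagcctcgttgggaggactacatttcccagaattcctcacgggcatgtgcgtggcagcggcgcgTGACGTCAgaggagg
The Vdr window holds 1 AGTTCA, read on the opposite strand, and the Nr6a1 window holds the palindrome TGACGTCA near its 3′ end, in which TGACG lies on both strands. A further Nr6a1 window, not printed, holds 2 AGGTCA and 1 AGTTCA, all on the opposite strand, and 1 TGACG. Of the 34 genes, 31 had at least 1 window, 43 in all. AGTTCA was found in 6 of these 43, beside 13.99% of all 32851 windows, and AGGTCA in 5 of them, beside 16.26% of all. Direct repeats of these hexamers, or of GGGTCA and GGTTCA, in any combination and spaced by 1 to 5 bases, were in none of the 43 windows and in 0.04% to 0.27% of all windows. The palindrome TGACGTCA was in 2 of the 43 windows, of Nr6a1 and Nr2e1, beside 1.79% of all windows. These are matches of letters within short windows and say nothing of what binds there.

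**Figure D3:**
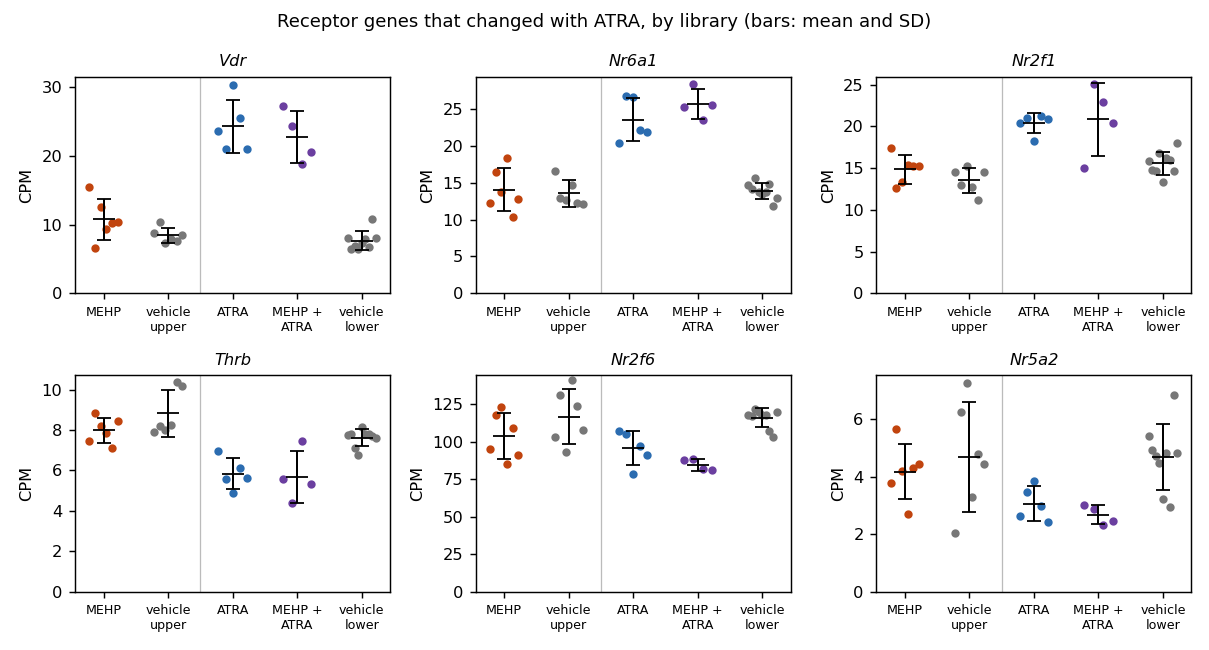
CPM by library for 6 receptor genes that changed with ATRA (each point is 1 library; bars are the mean and SD; the line parts the upper-range groups from the lower-range groups). All ATRA and MEHP + ATRA libraries lie above the lower-range vehicle libraries for Vdr and Nr6a1, and most lie below them for Thrb and Nr2f6.

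Of the lipid and xenobiotic sensors Nr1h2, Nr1h3, Nr1h4, Nr1i3 and Hnf4a, only Nr1h2 passed the test in a treatment. Nr1h2, the LXR beta gene, had 79.4, 83.8, 85.8 and 93.9 CPM in MEHP + ATRA libraries, against 83.3 to 108 CPM (median 102) in lower-range vehicle libraries. The groups overlapped, with 1 treated library below all of vehicle, and Nr1h2 fell by 0.22 ± 0.07 (adjusted p = 0.0177, edgeR). This call was lost without MEHP + ATRA replicate 3 or replicate 4 (log2 fold change as small as −0.19, adjusted p up to 0.094). Nr1h3, the LXR alpha gene, had 1.02 to 2.16 CPM with MEHP + ATRA and 1.41 to 2.36 CPM in lower-range vehicle (−0.33 ± 0.21, adjusted p = 0.265). The bile acid receptor Nr1h4 and the xenobiotic receptor Nr1i3 stayed at or below 1.38 CPM in all libraries and passed in no comparison. Their standard errors against vehicle were 0.31 to 0.33, too wide to show that they did not change. Nr1h4 differed by −0.55 ± 0.32 with ATRA (adjusted p = 0.291). Exons of Nr1i3 overlap those of the better covered Tomm40l by 3304 bases on the opposite strand, and counting without strand would not separate the 2 genes there. Hnf4a, which directs liver and intestinal genes, ranged from 0 to 3.16 CPM among vehicle libraries, and its fold changes had standard errors of 0.83 or more.

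Receptors of the circadian loop did not pass with the exception of Rorb. Nr1d1 and Nr1d2 encode the REV-ERB repressors, and their differences from vehicle were 0.13 or less in log2 in every treatment (adjusted p of 0.506 or more). Rora, an activator at the same DNA elements, differed by 0.36 ± 0.12 with MEHP (adjusted p = 0.0892) and by 0.28 ± 0.12 with MEHP + ATRA (adjusted p = 0.0965). The Rora difference passed without MEHP replicate 2 (0.44, adjusted p = 0.0206) or vehicle replicate 3 (0.45, adjusted p = 0.0279) for MEHP, and without MEHP replicate 4 (0.29, adjusted p = 0.0397) for MEHP + ATRA.

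Rorb, a close relative of Rora known from the retina and the brain, was low throughout. It held 0.129, 0.225, 0.372 and 0.448 CPM in MEHP + ATRA libraries, which is 3 to 11 counts. ATRA libraries held 0.579, 0.615, 0.656, 0.742 and 0.923 CPM, and lower-range vehicle libraries 0.438 to 1.62 CPM (median 0.907). Every MEHP + ATRA library lay below every ATRA library, and 3 of 4 lay below all lower-range vehicle libraries. Rorb fell by 1.69 ± 0.33 with MEHP + ATRA against vehicle (adjusted p = 0.00019). Against ATRA the difference was −1.23 ± 0.37 and did not pass (adjusted p = 0.0641), but it passed without vehicle replicate 15 (adjusted p = 0.0472) and in DESeq2 (adjusted p = 0.0496). The differences with MEHP (−0.48 ± 0.27) and ATRA (−0.45 ± 0.27) did not pass (adjusted p = 0.428 and 0.291).

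Of the NR2 group, Nr2f1, Nr2f6, Nr2c1 and Nr2c2 all changed with MEHP + ATRA, and the first pair also with ATRA. Nr2f1, which encodes COUP-TF1, a factor known to be raised by retinoids in other cells, rose with ATRA. ATRA libraries held 18.3, 20.4, 20.9, 21.0 and 21.2 CPM, all above the 13.3 to 18 CPM (median 15.8) of lower-range vehicle libraries. MEHP + ATRA libraries held 15.0, 20.4, 22.9 and 25.1 CPM, and the lowest of these fell within vehicle. Nr2f1 rose by 0.39 ± 0.09 with ATRA (adjusted p = 0.00246) and by 0.42 ± 0.10 with MEHP + ATRA (adjusted p = 0.00128).

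Nr2f6, a COUP-TF relative that acts as a repressor, moved the other way. It had 78.5, 91.4, 97.1, 105 and 107 CPM with ATRA and 81.0, 81.6, 87.7 and 88.7 CPM with MEHP + ATRA. Vehicle of the lower range had 103 to 122 CPM (median 118), which overlapped the 2 highest ATRA libraries and no MEHP + ATRA library. Nr2f6 fell by 0.45 ± 0.10 with MEHP + ATRA (adjusted p = 0.000447) and by 0.28 ± 0.09 with ATRA (adjusted p = 0.0257). The ATRA call was lost without ATRA replicate 3 or replicate 5 (log2 fold change as small as −0.21, adjusted p up to 0.113). Exons of Nr2f6 overlap those of Ocel1 by 1622 bases on the opposite strand.

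The testicular receptors TR2 and TR4, encoded by Nr2c1 and Nr2c2, both rose slightly with MEHP + ATRA. Nr2c1 had 16.5, 17.7, 18.2 and 18.4 CPM in MEHP + ATRA libraries, all above the 12.9 to 16.1 CPM (median 14.5) of lower-range vehicle libraries (0.27 ± 0.06, adjusted p = 0.00104). Nr2c2 had 59.9, 60.5, 63.3 and 64.3 CPM, against 45.0 to 60.6 CPM (median 55.9) in lower-range vehicle libraries, and 2 of 4 lay above them. The Nr2c2 rise of 0.17 ± 0.05 (adjusted p = 0.0192) was lost without MEHP + ATRA replicate 2 or replicate 4 (adjusted p up to 0.0673). It was also lost without the range term (0.11, adjusted p = 0.145). Nr2c2 shares 4590 exonic bases with Mrps25 on the opposite strand.

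The 3 NR4A genes are immediate early receptors that act without a ligand and are induced within minutes by hormones and growth signals, among them luteinizing hormone in Leydig cells. Nr4a1 fell with ATRA and with MEHP + ATRA, Nr4a3 rose with MEHP and with MEHP + ATRA, and Nr4a2 did not pass. Nr4a1, also called Nur77 (chromosome 15, 101266846 to 101274792), had 15.9, 18.6, 20.3, 24.3 and 29.8 CPM with ATRA and 19.5, 20.0, 24.2 and 24.8 CPM with MEHP + ATRA. Vehicle of the lower range had 24.4 to 36.3 CPM (median 32.5), and 4 of 5 ATRA and 3 of 4 MEHP + ATRA libraries lay below all of them. Nr4a1 fell by 0.57 ± 0.14 with ATRA (adjusted p = 0.00404, edgeR) and by 0.54 ± 0.15 with MEHP + ATRA (adjusted p = 0.00693). With MEHP it had 31.6 to 59.6 CPM (median 36.3), against 29.0 to 45.7 CPM (median 35.6) in upper-range vehicle libraries (0.07 ± 0.14, adjusted p = 0.892).

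Nr4a3, the rarest of the 3 (chromosome 4, 48045153 to 48086447), was higher with MEHP. It had 0.899 to 1.84 CPM (median 1.14) in MEHP libraries, or 16 to 35 counts, against 0.286 to 1.21 CPM (median 0.563) in upper-range vehicle libraries, or 5 to 23 counts. The groups overlapped through 1 vehicle library, replicate 3. The rise was 1.08 ± 0.28 (adjusted p = 0.0161) and was lost without MEHP replicate 1 (adjusted p = 0.0599), and in a fit of the upper-range libraries alone (adjusted p = 0.0864). With MEHP + ATRA, Nr4a3 had 0.814, 1.31, 1.68 and 1.86 CPM, against 0.329 to 0.867 CPM (median 0.555) in lower-range vehicle libraries, and it rose by 1.26 ± 0.27 (adjusted p = 0.000434). ATRA libraries held 0.737, 0.769, 0.785, 0.902 and 1.17 CPM (0.58 ± 0.27, adjusted p = 0.141). Nr4a2 passed in no treatment, with differences of 0.02 ± 0.13 with MEHP alone, −0.20 ± 0.13 with ATRA alone and −0.32 ± 0.14 with MEHP + ATRA (adjusted p = 0.972, 0.341 and 0.0866).

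The promoter windows of the NR4A genes are shown to set the 3 genes side by side, since cAMP signalling is known to act on them through elements with the core TGACG. They are RefSeq windows of GRCm38.p6, 5′ to 3′ on the gene's strand (plus for Nr4a1 and Nr4a3, minus for Nr4a2), and capitals mark TGACG on either strand.
Nr4a1, chr15:101266596-101266895: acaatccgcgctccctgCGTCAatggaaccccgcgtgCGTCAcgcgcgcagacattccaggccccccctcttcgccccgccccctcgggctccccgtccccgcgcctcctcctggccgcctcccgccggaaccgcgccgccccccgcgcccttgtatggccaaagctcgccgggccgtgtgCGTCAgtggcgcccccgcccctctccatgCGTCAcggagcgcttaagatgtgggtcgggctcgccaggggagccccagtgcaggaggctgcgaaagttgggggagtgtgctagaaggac
Nr4a2, chr2:57123954-57124253: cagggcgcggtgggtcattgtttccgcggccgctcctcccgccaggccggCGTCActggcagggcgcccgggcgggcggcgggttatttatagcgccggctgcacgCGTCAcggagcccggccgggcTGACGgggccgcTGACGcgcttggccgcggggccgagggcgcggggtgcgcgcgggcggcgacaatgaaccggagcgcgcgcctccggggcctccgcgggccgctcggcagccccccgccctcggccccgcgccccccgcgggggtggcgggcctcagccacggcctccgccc
Nr4a3, chr4:48045055-48045354: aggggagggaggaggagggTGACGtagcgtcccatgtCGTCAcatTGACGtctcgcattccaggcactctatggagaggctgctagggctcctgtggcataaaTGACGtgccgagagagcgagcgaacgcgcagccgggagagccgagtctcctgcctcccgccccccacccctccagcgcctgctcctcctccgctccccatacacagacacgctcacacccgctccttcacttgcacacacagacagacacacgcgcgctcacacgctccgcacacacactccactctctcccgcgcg
Each window holds 4 copies of the core. In Nr4a1 all 4 lie on the opposite strand, in Nr4a2 2 lie on each strand, and in Nr4a3 3 lie on the gene's strand and 1 on the other. At least 1 copy was found in 12 of the 43 receptor windows (27.9%) and in 20.81% of all 32851 windows. How many of all windows hold 4 copies was not counted.

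Immediate early genes from a list of 20 transcription factors and regulators were mostly lower in the same libraries. With ATRA 9 of 20 fell, beside 9.03% of all genes, and with MEHP + ATRA 14 of 20 fell, beside 14.7% of all genes, with median log2 fold changes of −0.42 and −0.56 over the list, beside 0.00 and −0.01 over all genes. Btg2 fell by 0.73 ± 0.08 with ATRA and by 0.88 ± 0.08 with MEHP + ATRA, and Egr1 by 1.00 ± 0.16 and 1.12 ± 0.18. With MEHP, 2 of 20 fell, Egr3 by 1.44 ± 0.34 and Egr1 by 0.60 ± 0.16 (adjusted p = 0.00768 and 0.0229). Nr4a3 rose with MEHP and with MEHP + ATRA, where the list members that passed fell, and Nr4a1 fell with ATRA and with MEHP + ATRA. Whether either receptor differed from the list was not tested.

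Nr0b2 rose with MEHP both alone and on top of ATRA. It encodes SHP, a receptor without a DNA-binding domain that represses other receptors, among them those that drive steroidogenic genes (ENSMUSG00000037583, chromosome 4, 133553376 to 133556536). MEHP libraries held 10.6 to 14.1 CPM (median 12.7), against 6.47 to 11.3 CPM (median 9.12) in upper-range vehicle libraries, and 5 of 6 MEHP libraries lay above all of these. MEHP + ATRA libraries held 10.1, 12.8, 13.4 and 16.8 CPM, ATRA libraries 8.27, 9.01, 9.31, 9.38 and 11.2 CPM and lower-range vehicle libraries 7.74 to 10.1 CPM (median 8.70). The 4 MEHP + ATRA libraries lay above all 9 vehicle libraries, and 3 of them above all ATRA libraries.

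Nr0b2 rose by 0.46 ± 0.11 with MEHP against vehicle (adjusted p = 0.00957, edgeR) and by 0.58 ± 0.11 with MEHP + ATRA against vehicle (adjusted p = 0.000114). MEHP + ATRA against ATRA changed 1 of 30 receptors, Nr0b2, beside 3.0% of all genes. That rise was 0.50 ± 0.12 (adjusted p = 0.0207). ATRA alone gave 0.08 ± 0.11 (adjusted p = 0.688), and the interaction was 0.04 ± 0.17. The call against ATRA was lost without ATRA replicate 3, MEHP + ATRA replicate 1 or MEHP + ATRA replicate 4 (0.37 at the least, adjusted p up to 0.161). In a fit of the upper-range libraries alone, the MEHP call was lost (adjusted p = 0.0585).

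**Figure D4:**
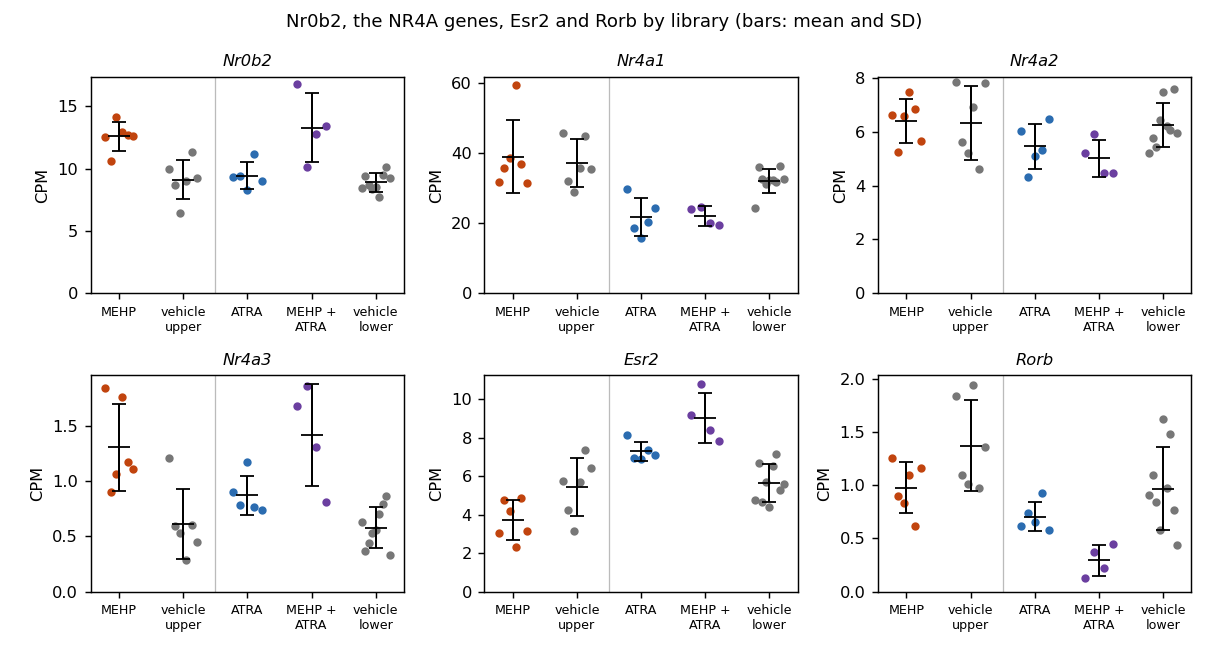
CPM by library for Nr0b2, the 3 NR4A genes, Esr2 and Rorb (each point is 1 library; bars are the mean and SD; the line parts the upper-range groups from the lower-range groups). Of the 6 MEHP libraries, 5 lie above all upper-range vehicle libraries for Nr0b2, and all MEHP + ATRA libraries lie below all ATRA libraries for Rorb.

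Nr5a2 encodes LRH-1, an activator of cholesterol and steroid genes and a close relative of the steroidogenic factor gene Nr5a1. It held 2.42, 2.62, 2.97, 3.49 and 3.86 CPM with ATRA and 2.34, 2.48, 2.89 and 3.02 CPM with MEHP + ATRA. Vehicle of the lower range had 2.95 to 6.86 CPM (median 4.82), so the groups overlapped at their edges, and 2 of 5 ATRA and 3 of 4 MEHP + ATRA libraries lay below vehicle. Nr5a2 fell by 0.81 ± 0.24 with MEHP + ATRA (adjusted p = 0.00904, edgeR), a call kept on leaving out any 1 library (adjusted p up to 0.0401). With ATRA it fell by 0.61 ± 0.21, just past the threshold (adjusted p = 0.0462). That call was lost on leaving out any 1 of 19 libraries (−0.52 to −0.71 over all 30, adjusted p up to 0.126). These were ATRA replicates 1, 2, 4 and 5, MEHP replicates 1, 3, 5 and 6, MEHP + ATRA replicates 2, 3 and 4, and vehicle replicates 1, 2, 5, 7, 9, 13, 14 and 15.

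The estrogen-related receptors, orphans that act with PGC-1 coactivators on energy metabolism, went different ways with MEHP + ATRA. Esrra did not pass in any treatment (−0.03 to 0.02 in log2, adjusted p of 0.834 or more), and 73 of its exonic bases lie opposite the better covered Trmt112. Esrrb, a pluripotency factor expressed in early germ cells, had 4.19, 4.77, 4.97 and 6.84 CPM with MEHP + ATRA, against 5.43 to 12.7 CPM (median 8.39) in lower-range vehicle libraries. It fell by 0.72 ± 0.22 (adjusted p = 0.0139). The call was lost without MEHP + ATRA replicate 1 (adjusted p = 0.0649) and without the range term (−0.53, adjusted p = 0.0838).

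Esrrg was low, with 1.22, 1.38, 1.58 and 2.00 CPM in MEHP + ATRA libraries, against 0.404 to 1.27 CPM (median 0.866) in lower-range vehicle libraries. Of the 4 treated libraries, 3 lay above all of vehicle, and Esrrg rose by 0.93 ± 0.21 (adjusted p = 0.000932). With ATRA it differed by 0.55 ± 0.20 (adjusted p = 0.0628), which passed without ATRA replicate 2 (0.64, adjusted p = 0.0428) or vehicle replicate 12 (0.65, adjusted p = 0.0203). Ppargc1a, the gene of their coactivator PGC-1 alpha, rose by 0.54 ± 0.15 with MEHP (adjusted p = 0.038), by 0.89 ± 0.15 with MEHP + ATRA (adjusted p = 2.8e-05) and by 0.74 ± 0.17 with MEHP + ATRA against ATRA (adjusted p = 0.0121).

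The interaction of MEHP and ATRA passed for 0 of 30 receptors in edgeR, with 1 at an unadjusted p under 0.05, and for 0 in DESeq2, beside 0.0311% of all genes. Likewise the ranges of the title numbers differed in vehicle for 0 of 30 receptors in edgeR (9 at an unadjusted p under 0.05) and 0 in DESeq2, beside 0.373% of all genes. The calls made with MEHP + ATRA alone, for Esr2, Nr3c1, Rorb, Nr1h2, Nr2c1, Nr2c2, Esrrb and Esrrg, are thus not shown to depend on the combination. Here too the effects of MEHP with and without ATRA come from different ranges of the title numbers. Against ATRA the same 8 genes had log2 differences of 0.31, 0.14, −1.23, −0.12, 0.14, 0.05, −0.45 and 0.38, and none passed the test in edgeR. Nr3c1 and Rorb passed in DESeq2 (adjusted p = 0.0497 and 0.0496).

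Genes that supply or clear the ligands of these receptors were examined as a list. Of 13 tested enzymes and transporters of hormone ligands, 3 rose and 1 fell with ATRA, and 4 rose and 2 fell with MEHP + ATRA, beside 18.1% and 29.0% of all genes called in either direction. Hsd11b2 encodes the enzyme that inactivates corticosterone and so guards the mineralocorticoid receptor. It held 13.8, 16.2, 17.8, 18.7 and 19.9 CPM with ATRA and 8.71, 8.87, 10.3 and 11.4 CPM with MEHP + ATRA, against 36.3 to 65.5 CPM (median 43.1) in lower-range vehicle libraries. No treated library overlapped vehicle, and all MEHP + ATRA libraries lay below all ATRA libraries. Hsd11b2 fell by 1.41 ± 0.17 with ATRA (adjusted p = 1.07e-07, edgeR), by 2.23 ± 0.19 with MEHP + ATRA (adjusted p = 1.11e-10) and by 0.82 ± 0.20 with MEHP + ATRA against ATRA (adjusted p = 0.0194).

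Cyp7b1 encodes the hydroxylase that clears oxysterols, ligands of LXR, and some androgens that bind estrogen receptor beta. It held 13, 13.5, 14.6, 15.4 and 16.0 CPM with ATRA and 15.1, 15.4, 18.2 and 19.3 CPM with MEHP + ATRA, against 4.08 to 7.01 CPM (median 5.48) in lower-range vehicle libraries. These groups lay far apart, with rises of 1.41 ± 0.13 (adjusted p = 1.81e-09) and 1.64 ± 0.14 (adjusted p = 9.58e-11). Slc16a10, which encodes a transporter of thyroid hormones and aromatic amino acids, rose by 0.75 ± 0.15 with ATRA and by 1.06 ± 0.15 with MEHP + ATRA. Ch25h, which makes an oxysterol, fell by 1.25 ± 0.30 with MEHP + ATRA from a low level (0.372 to 0.570 CPM, against 0.771 to 1.66 CPM in lower-range vehicle). The vitamin D degrading gene Cyp24a1, a textbook target of Vdr, was near 0 in all groups, at most 0.281 CPM in any library, and too low to test.

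Of 23 coregulators tested, 2 rose with MEHP, 4 rose and 1 fell with ATRA, and 7 rose and 3 fell with MEHP + ATRA, beside 4.72%, 18.1% and 29.0% of all genes called. The coactivator Ncoa4 had 128 to 152 CPM with ATRA and 144 to 170 CPM with MEHP + ATRA, against 61.7 to 71.9 CPM in lower-range vehicle. It rose by 1.11 ± 0.06 and 1.27 ± 0.06 (adjusted p = 4.13e-15 and 3.44e-16). Ncoa3, a p160 coactivator, rose by 0.82 ± 0.05 with ATRA, by 0.99 ± 0.05 with MEHP + ATRA and by 0.19 ± 0.05 with MEHP (adjusted p = 0.0249). Nrip1, a corepressor that retinoids induce in other cells, rose by 0.45 ± 0.06 with MEHP + ATRA. The median log2 fold change of the 23 was −0.01, 0.01 and −0.01 with MEHP, ATRA and MEHP + ATRA. Of 12 steroid receptor chaperones, Fkbp4 rose (0.27 ± 0.04 with ATRA and 0.36 ± 0.05 with MEHP + ATRA) and Fkbp5 fell (−0.31 ± 0.07 and −0.35 ± 0.08), and no others passed with these treatments.

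**Figure D5:**
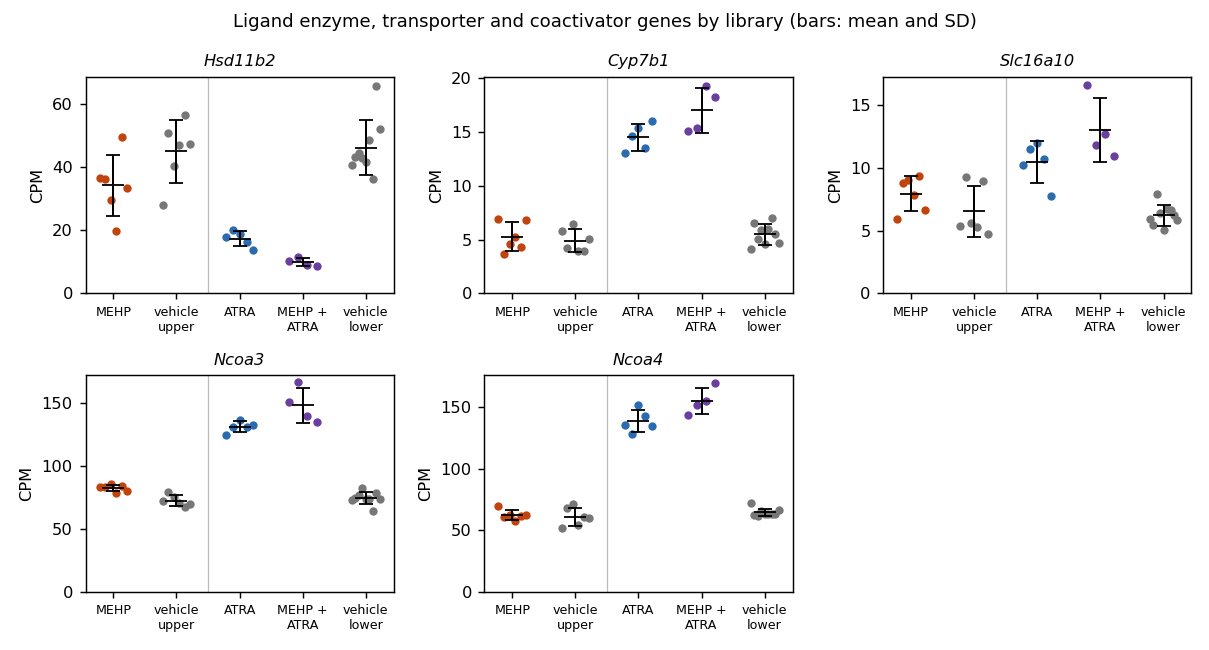
CPM by library for 3 ligand enzyme and transporter genes and 2 coactivator genes (each point is 1 library; bars are the mean and SD; the line parts the upper-range groups from the lower-range groups). ATRA and MEHP + ATRA libraries lie below the lower-range vehicle libraries for Hsd11b2 and above them for Cyp7b1, Ncoa3 and Ncoa4.

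Known targets of the receptors gave mixed counts, to be read beside the 4.72% (MEHP), 18.1% (ATRA) and 29.0% (MEHP + ATRA) of all genes called. Of 15 glucocorticoid receptor targets, 4 rose and 3 fell with ATRA and 4 rose and 4 fell with MEHP + ATRA, so the list had no common direction. Klf9, a target of glucocorticoid and thyroid hormone receptors, rose by 0.62 ± 0.11 with ATRA and by 0.82 ± 0.11 with MEHP + ATRA, while Ddit4 fell by 0.31 ± 0.08 and 0.53 ± 0.09. Of 5 tested thyroid hormone targets, Klf9 and Mbp rose with both treatments, Mbp by 0.62 ± 0.07 and 0.74 ± 0.07. Of 12 LXR targets, 3 rose with MEHP alone, 1 with ATRA alone and 4 with MEHP + ATRA. Lpcat3, a phospholipid acyltransferase, rose by 0.26 ± 0.04 with MEHP (adjusted p = 8.85e-06) and Scd2, a fatty acid desaturase, by 0.34 ± 0.07 (adjusted p = 0.00111). Abca1, the cholesterol exporter, rose by 0.28 ± 0.09 with ATRA and by 0.55 ± 0.09 with MEHP + ATRA.

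Clock genes moved in both directions while Nr1d1 and Nr1d2 did not pass. Of 15, 1 fell with MEHP, and 4 rose and 4 fell with ATRA and again with MEHP + ATRA, beside 4.72%, 18.1% and 29.0% of all genes called. Tef had 119 to 144 CPM with MEHP, against 154 to 224 CPM in upper-range vehicle libraries, and fell by 0.56 ± 0.06 (adjusted p = 1.5e-07). It fell by 0.57 ± 0.06 with ATRA and by 1.05 ± 0.07 with MEHP + ATRA, where 83.6 to 86.2 CPM stood against 160 to 185 CPM in lower-range vehicle libraries. Dbp rose by 0.87 ± 0.10 with ATRA and by 0.96 ± 0.11 with MEHP + ATRA. Of 14 nuclear receptors outside the 34, 1 rose with MEHP, 3 rose and 1 fell with ATRA, and 3 rose and 3 fell with MEHP + ATRA. Rarb rose by 3.85 ± 0.16 with ATRA, Nr0b1, the closest relative of Nr0b2, by 2.23 ± 0.12, and with MEHP Nr0b1 rose by 0.48 ± 0.13 (adjusted p = 0.0277).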

How the data were processed

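RNA was extracted with Trizol and PicoPure columns and enriched on oligo-dT beads, per the labels' protocols. The authors deposited raw read counts per gene, made with bcl2fastq 2.20, Trimmomatic 0.36, STAR 2.5.2b and featureCounts of Subread 1.5.2, per the submitters' processing notes. Genome build, annotation and strand setting were not stated there or in the labels. Of the gene IDs, 99.47% were in GENCODE M21 (GRCm38), and 31 of 34 members had the same bounds there. Coordinates in the text are those of the deposited tables, and symbols were found for 99.3% of the IDs.

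All 30 libraries entered 1 quasi-likelihood fit in edgeR 4.0.16 (R 4.3.3, limma 3.58.1), with group and the range of the second title number (below or above 500) as terms. Counts were scaled by TMM (factors 0.975 to 1.023) and filtered by filterByExpr (minimum count 10), which left 19323 genes. P-values were adjusted by Benjamini-Hochberg over these genes with a threshold of 0.05, on 25 residual degrees of freedom. The standard error is the log2 fold change over the root of F. The procedure was also run on simulated counts with the same spread for all genes. These held no difference between ranges and no link between libraries, so the run did not test those features. CPM and RPKM were computed with the scaled library sizes and the deposited exon lengths.

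The alternatives were DESeq2 1.42.0, no filter, no range term, the libraries of 1 range alone, other scalings, replicate blocks and leaving out each library. Members that passed a treatment comparison are given by library, the others by range, and from each context list up to 3 genes with the smallest p per comparison are named. Slc16a10, Ch25h and Cyp24a1 were named after their values were seen. Some listed genes are not reported here. The members and lists were chosen with earlier results of these data known.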

Additional observations from a re-analysis of the deposited data

Results flagged for a closer look

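In 14 of 150 sets of values (30 genes in 5 groups), 1 library stood apart from the rest of its group by Dixon's test at the 95% level, and chance gives about 1 in 20 sets. The 14 cases fell in 10 genes, with 3 each in vehicle replicates 3 and 12 and 2 in MEHP replicate 4.

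Hnf4a stood high in all 3 of these libraries. It had 1.92 CPM in MEHP replicate 4 (next value 0.635 CPM), 2.06 CPM in vehicle replicate 12 (next 0.635 CPM) and 3.16 CPM in vehicle replicate 3 (next 0.628 CPM). Vehicle replicate 3 was also highest in its group for Nr4a3 with 1.21 CPM (next 0.605 CPM) and for Rora with 16.6 CPM (next 13.1 CPM). Vehicle replicate 12 was highest for Nr3c2 with 4.90 CPM (next 3.56 CPM) and lowest for Nr2c2 with 45.0 CPM (next 53.8 CPM).

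Nr4a1 had 59.6 CPM in MEHP replicate 4 (next 38.8 CPM) and was low in vehicle replicate 1 with 24.4 CPM (next 31.3 CPM). Nr2c2 had 65.1 CPM in ATRA replicate 5 (next 59.6 CPM), and Nr2f1 was low in ATRA replicate 3 with 18.3 CPM (next 20.4 CPM). Vdr had 10.8 CPM in vehicle replicate 13 (next 8.05 CPM), Nr1i3 had 1.38 CPM in vehicle replicate 6 (next 0.791 CPM), and Nr2c1 was low in vehicle replicate 14 with 14.1 CPM (next 15.9 CPM).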

How the results depend on the processing

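No call of a receptor gene reversed under any alternative or on leaving out any library. The calls that were lost are given beside their genes above, and that of Nr5a2 with ATRA was also lost with no filter on low counts (adjusted p = 0.071). Under the DESeq2 Wald test, 3 receptors and 821 genes passed in MEHP + ATRA against ATRA, beside 1 and 579 in edgeR. The same test passed 12 genes in the interaction and 338 between the vehicle ranges, against 6 and 72 in edgeR. With no filter, 19 genes differed between the ranges. Without the range term, MEHP changed 8 receptors (6 higher, 2 lower) and 2229 genes, against 2 and 912 with it, and the interaction passed for 10 genes. Esr1, Esr2, Pgr, Rora, Vdr and Esrrb were the receptors gained. With the libraries of 1 range alone, MEHP changed 0 receptors in edgeR and 439 genes, and MEHP + ATRA against ATRA changed 967 genes, against 579. Against vehicle, ATRA changed 9 receptors and 4224 genes, and MEHP + ATRA 20 receptors and 6499 genes. In these smaller fits Esr2 and Nr3c2 passed with ATRA (adjusted p = 0.0186 and 0.0086), and Esr1, Nr3c2 and Rora with MEHP + ATRA (0.0301, 0.0178 and 0.0232). The causes of these shifts were not tested.

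On leaving out 1 library at a time, ATRA changed 2914 to 3763 genes and 5 to 9 receptors, and MEHP + ATRA 4613 to 5980 genes and 15 to 18 receptors. MEHP changed 668 to 1151 genes and 1 to 4 receptors, with 1 receptor left without MEHP replicate 1 and 4 without MEHP replicate 2. MEHP + ATRA against ATRA changed 340 genes without MEHP + ATRA replicate 1 and up to 689, and 0 to 2 receptors. The interaction passed for 3 to 8 genes, with 3 without MEHP + ATRA replicate 2. The vehicle ranges differed in 10 genes without vehicle replicate 14 and in up to 169 without vehicle replicate 4.

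The first title numbers were tried as a replicate block. Mean deviations of treated and vehicle libraries that share a number correlated at 0.083 to 0.648, over 0.1 in 7 of 9 sets. Among the numbers of their range, 11 of 15 treated libraries lay closest to the vehicle mean of their own number. This is a hint of pairing from the data, not from the design; not every set passed 0.1 and no label says what the numbers mark, and the block was kept as an alternative. With the block within a range, MEHP changed 3 receptors and 1227 genes, against 2 and 912 in the main fit. ATRA changed 8 and 3848, against 7 and 3494, and MEHP + ATRA 19 and 6021, against 17 and 5595. The interaction passed for 2 genes under this block. Gained there were Esr2 with MEHP (adjusted p = 0.0479), Nr3c2 with ATRA (0.0124) and Esr1 and Nr3c2 with MEHP + ATRA (0.036 and 0.041). With the block over both ranges, MEHP + ATRA against ATRA changed 2 receptors and 1371 genes, the interaction passed for 3 genes and the ranges differed in 42. Against vehicle, ATRA changed 9 receptors and 3882 genes under this block, and MEHP + ATRA 18 and 6351. Gained there were Nr3c2 and Esrrg with ATRA (0.00615 and 0.0333), Esr1 with MEHP + ATRA (0.0184) and Rorb against ATRA (0.0365). No receptor call was lost under either block. Levels as TPM kept the rank of 33 of 34 genes. Genes with few counts carry the largest standard errors, Hnf4a above all, then Nr1h4, Nr1i3, Rorb and Nr4a3. The range of the title numbers cannot be told apart from the treatment beyond what vehicle libraries of both ranges provide.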
